A study of Mus musculus with 12 samples.

Results

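Bile acid synthesis and its regulators were followed through 10 genes in mouse liver. They are the enzyme genes Cyp7a1, Cyp7b1, Cyp8b1, Cyp27a1, Akr1d1 and Baat, the transporter genes Abcb11 and Slc10a1, and the nuclear receptor genes Nr0b2 and Nr1h4. Every probe carrying 1 of these gene names on the array was taken, which gave 12 of the 41174 probes and 10 of the 27962 gene names, with 2 probes each for Cyp7a1 and Baat and 1 for each other gene. All 12 were well above background on all 12 arrays and passed the filter on dim probes, which 25297 probes passed in all.

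Liver RNA came from 12 male C57BL/6 mice, 1 array per mouse, in 4 groups of 3. Mice of the genotypes SIRT1+/- (Het) and SIRT1+/+ (WT) were kept for 34 weeks on a high-fat or a low-fat diet, giving Het high-fat, WT high-fat, Het low-fat and WT low-fat groups. SIRT1 is an NAD-dependent deacetylase, and Het mice carry 1 wild-type copy of its gene. Neither the nature of the mutant allele nor the make-up of the diets or the age of the mice is given in the sources used here.

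Hepatocytes make bile acids from cholesterol. In the classic route CYP7A1 takes the first, rate-limiting step, CYP8B1 decides how much cholic acid is formed, and AKR1D1 reduces the steroid ring. In the alternative route CYP27A1 or another sterol hydroxylase acts first and CYP7B1 follows. BAAT joins the finished acid to taurine or glycine, the pump ABCB11 exports it into bile, and SLC10A1 takes it back up from blood. Bile acids activate the receptor FXR, encoded by Nr1h4, which induces SHP, encoded by Nr0b2, and Abcb11, and through SHP and an intestinal hormone lowers the transcription of Cyp7a1.

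Levels are log2 processed intensities minus the log2 of the 75th percentile of the same array, so a level of 0 equals that percentile. Differences between groups are log2 values with standard errors from limma's moderated two-sided test, and p-values are Benjamini-Hochberg adjusted over all 25297 probes tested, at a threshold of 0.05. Levels of different probes are not set against each other, since probes differ in brightness for reasons other than abundance. In whole liver, fewer cells of a type and less RNA per cell cannot be told apart.

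On each array 58.0% to 71.6% of spots were well above background, and precision is limited by the number of arrays. The 6 high-fat arrays shared 1 scan day and 2 slides, and the 6 low-fat arrays the other day and 2 other slides, so diet cannot be told apart from scan day and slide in any diet comparison. On both Sirt1 probes the Het livers lay below the WT livers of the same diet, without overlap. Over both diets they differed by -0.44 ± 0.09 and -0.64 ± 0.09, which did not pass over all probes (adjusted p = 0.935 and 0.355). All 6 hepatocyte markers (Alb, Apoa1, Ttr, Tat, Cps1 and Hnf4a) were well above background on every array. Of 3 intestinal bile acid genes, Fgf15 and Fabp6 were so on no array, and Slc10a2 was so on every array.

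Of the 7 comparisons fitted, member probes passed the test in the 3 of diet and in none of genotype or interaction. Over both genotypes 3 of the 12 probes passed, those of Cyp7b1, Akr1d1 and Nr1h4, all lower on the high-fat diet, and 0 were higher. Cyp7b1 passed within each genotype and Akr1d1 within Het, while both probes of Cyp7a1, the rate-limiting enzyme, and the probe of Nr0b2 passed in no comparison. With diet in Het 2 of 12 probes passed (16.7%), both lower, where 14.8% of all probes passed and 8.01% passed as lower. With diet in WT 1 of 12 passed (8.33%), also lower, where 5.69% of all did and 3.27% as lower. Over both genotypes the 3 of 12 (25%) stood against 29.4% of all, and 17.1% as lower. The share of members that passed was thus near the share of all probes.

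**Figure D1:**
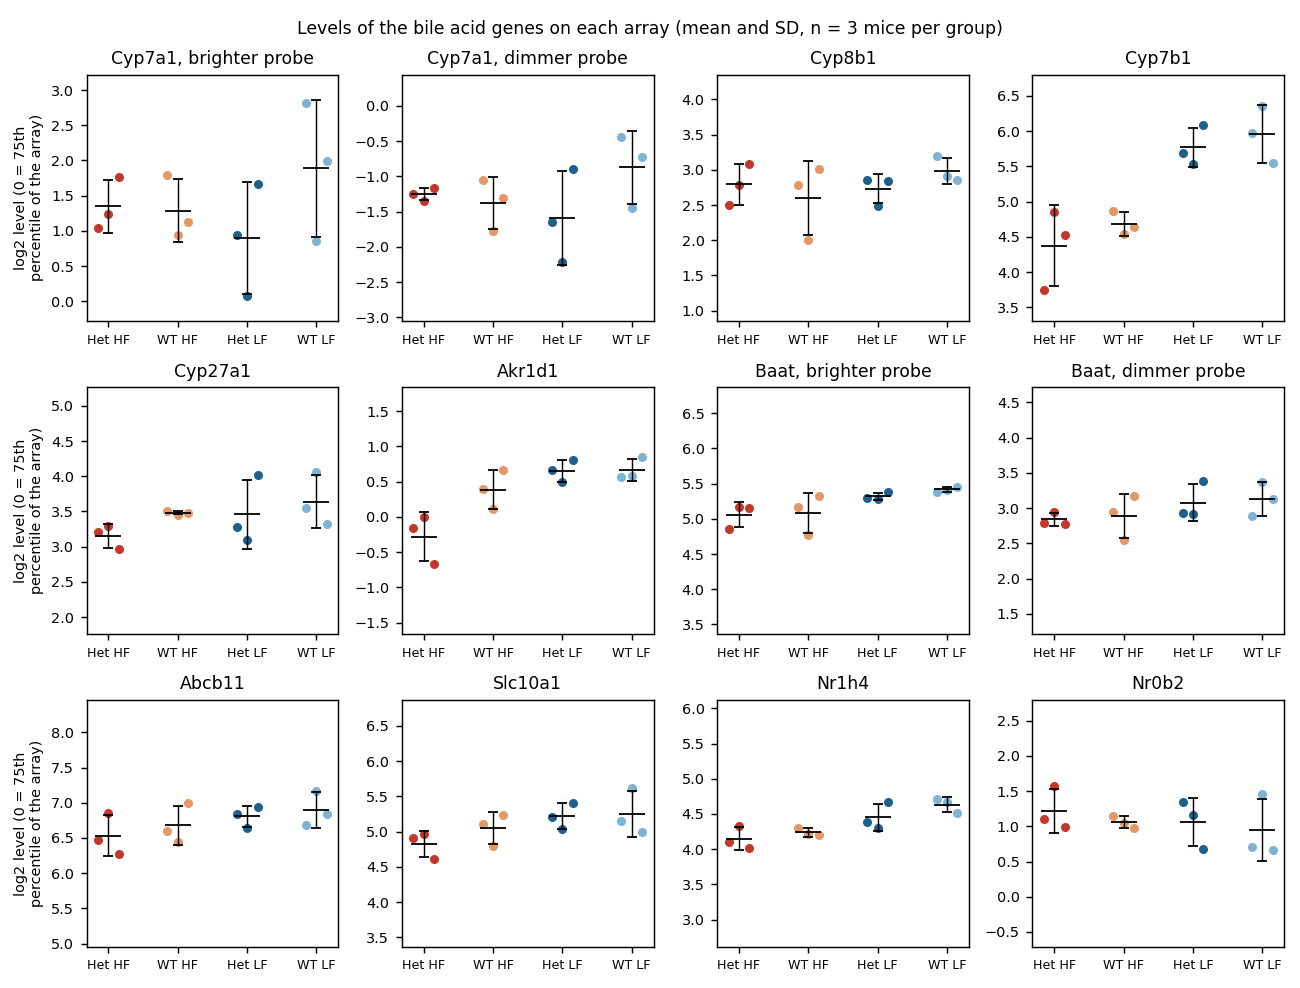
Log2 level of each member probe on the 12 arrays, relative to the array's 75th percentile, with 1 panel per probe and an equal span on every vertical axis. Points are single mice and bars are means ± SD (n = 3). Cyp7b1 lies between 3.74 and 4.86 on the high-fat arrays and between 5.54 and 6.36 on the low-fat arrays.

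Cyp7b1, the oxysterol hydroxylase of the alternative route, was the member with the largest diet difference. Its probe lies at 17798088 to 17798147 of chromosome 3, minus strand, per the file headers, which use build mm7. Its level was 3.74, 4.86 and 4.53 in Het high-fat livers, 4.86, 4.54 and 4.64 in WT high-fat livers, 5.69, 5.54 and 6.08 in Het low-fat livers, and 5.97, 6.36 and 5.55 in WT low-fat livers. Every high-fat liver lay below every low-fat liver, and it was the only member probe of which this held over both genotypes, where 12.7% of all probes showed such a separation. In Het livers Cyp7b1 fell to 38.0% of the low-fat level (-1.40 ± 0.29, adjusted p = 0.0121). In WT livers it fell to 41.2% (-1.28 ± 0.29, adjusted p = 0.0321), and over both genotypes to 39.6% (-1.34 ± 0.20, adjusted p = 0.00145, 95% interval -1.78 to -0.89). The call within WT was lost without any of WT high-fat replicates 1, 2 and 3 (-1.37, -1.21 and -1.26) or WT low-fat replicates 1 and 2 (-1.27 and -1.08), with adjusted p up to 0.0926, and without the filter on dim probes (adjusted p = 0.079). The calls within Het and over both genotypes held under every alternative run.

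Akr1d1 encodes the reductase that gives bile acids their bent steroid ring, and its probe lies at 37498455 to 37498514 of chromosome 6, plus strand, mm7. Its level was -0.16, -0.0011 and -0.68 in Het high-fat livers, 0.39, 0.11 and 0.66 in WT high-fat livers, 0.66, 0.50 and 0.81 in Het low-fat livers, and 0.56, 0.58 and 0.85 in WT low-fat livers. The 3 Het high-fat livers were the 3 lowest of all 12, while the other groups overlapped. In Het livers Akr1d1 fell to 52.3% of the low-fat level (-0.94 ± 0.20, adjusted p = 0.0136), and over both genotypes by 0.61 ± 0.14 (adjusted p = 0.00967). In WT livers the difference was -0.28 ± 0.20, with a 95% interval from -0.71 to 0.16. Both calls were lost when the trend of levels on probe GC content and brightness was removed (adjusted p = 0.0607 and 0.0604).

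Cyp7a1 was read by 2 probes, called brighter and dimmer here by their mean signal. The dimmer probe lies at 6195632 to 6196238 of chromosome 4, minus strand, in build mm7, per the file headers. Its 60 bases skip 547 positions inside that span, so it reads RNA joined across a gap in the genome, and its sequence is shown, in lower case throughout, because this property bears on what it measures.
Cyp7a1 dimmer probe: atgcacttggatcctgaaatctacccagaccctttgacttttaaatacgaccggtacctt
The brighter probe lies at 6193456 to 6193515 on the same strand, without a gap. Whether any member probe falls in a UTR was not determined, since no annotation of mm7 was used here.

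The brighter Cyp7a1 probe had levels of 1.04, 1.24 and 1.76 in Het high-fat livers, 1.79, 0.95 and 1.13 in WT high-fat livers, 0.94, 0.08 and 1.67 in Het low-fat livers, and 2.81, 0.86 and 1.99 in WT low-fat livers. The lowest and the highest liver were both on the low-fat diet, and all 4 groups overlapped. The dimmer probe had levels of -1.25, -1.34 and -1.16 in Het high-fat livers, -1.05, -1.78 and -1.31 in WT high-fat livers, -1.65, -2.22 and -0.89 in Het low-fat livers, and -0.44, -1.44 and -0.72 in WT low-fat livers. It had the same lowest and highest livers, Het low-fat replicate 2 and WT low-fat replicate 1.

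On the brighter Cyp7a1 probe the diet difference was 0.45 ± 0.49 in Het and -0.60 ± 0.49 in WT, with 95% intervals from -0.63 to 1.54 and from -1.68 to 0.48. The dimmer probe gave 0.34 ± 0.34 in Het and -0.51 ± 0.34 in WT. Single low-fat mice decided these values. On the brighter probe the WT difference was -0.14 without WT low-fat replicate 1 and -1.11 without replicate 2, and the Het difference was 0.05 without Het low-fat replicate 2 and 0.84 without replicate 3. Over both genotypes the difference was -0.07 ± 0.35 on the brighter probe (95% interval -0.84 to 0.69) and -0.09 ± 0.24 on the dimmer (-0.61 to 0.43). Neither probe passed in any comparison.

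**Figure D2:**
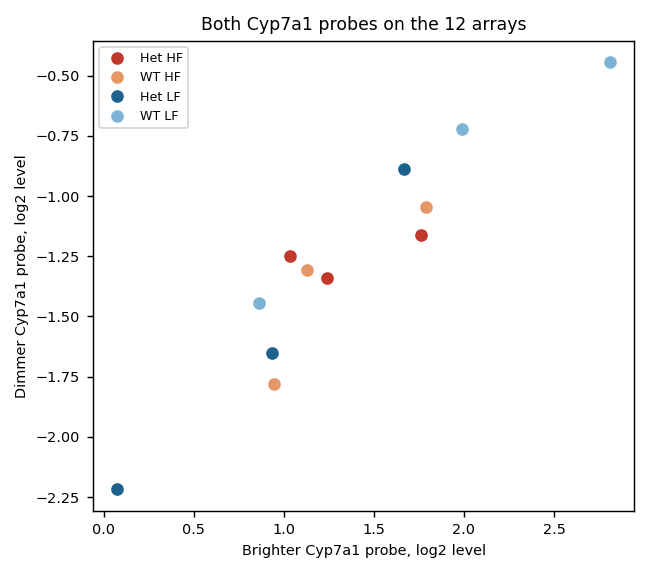
Log2 level of the dimmer Cyp7a1 probe against that of the brighter one on the 12 arrays, each relative to the array's 75th percentile, 1 point per mouse, coloured by group. The arrays fall along a rising line whose ends, Het low-fat replicate 2 and WT low-fat replicate 1, are both low-fat livers.

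Pooled over the 4 groups, the spread between mice was widest for Cyp7a1 among the members. Its within-group SD was 0.69 on the brighter probe, which exceeded that of 96.4% of the probes tested, and 0.46 on the dimmer. The spread of the brighter probe was wider on the low-fat diet. Within the Het high-fat and WT high-fat groups the brighter probe spanned 1.66-fold and 1.79-fold, against 3.01-fold in Het low-fat and 3.86-fold in WT low-fat livers. This contrast in spread was not tested. In the high-fat groups other members spanned more, Cyp7b1 2.17-fold in Het and Cyp8b1 2.01-fold in WT livers. At the other end Nr1h4 had an SD of 0.14, above that of 15.2% of the probes tested.

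The mouse-to-mouse differences in Cyp7a1 were seen alike by both probes. After group means were removed, their deviations over the 12 arrays correlated with Pearson's r = 0.93 (p = 0.00309) and Spearman's rho = 0.92 (p = 0.00154) in an exact permutation within groups, and r was 0.91 without the 2 arrays farthest from the median. Within the high-fat scan day r was 0.76 and within the low-fat scan day 0.96, over 6 arrays each. Among the 66 pairs of member probes computed, none passed after adjustment (smallest adjusted p 0.0849 for r and 0.0764 for rho), and the same adjusted p of 0.0849 for r belonged to Cyp27a1 with Slc10a1 (r = 0.80) and to the dimmer Baat probe with Abcb11 (r = 0.82). Values of 1 array share its labelling and scaling.

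Cyp8b1, the sterol 12α-hydroxylase, had levels of 2.50, 2.79 and 3.09 in Het high-fat livers, 2.78, 2.01 and 3.01 in WT high-fat livers, 2.86, 2.49 and 2.85 in Het low-fat livers, and 3.20, 2.92 and 2.85 in WT low-fat livers. The groups overlapped in both genotypes. Diet differences were 0.06 ± 0.25 in Het and -0.39 ± 0.25 in WT, with 95% intervals from -0.49 to 0.61 and from -0.93 to 0.16.

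Cyp27a1, the mitochondrial sterol 27-hydroxylase, had levels of 3.21, 3.29 and 2.97 in Het high-fat livers, 3.50, 3.46 and 3.48 in WT high-fat livers, 3.27, 3.09 and 4.02 in Het low-fat livers, and 3.54, 4.06 and 3.32 in WT low-fat livers. The diets overlapped within both genotypes, and the diet differences were -0.31 ± 0.24 in Het and -0.16 ± 0.24 in WT, neither of which passed.

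Baat, the conjugating enzyme, was measured by 2 probes on chromosome 4, minus strand, mm7. The brighter one lies at 49503287 to 49503298, where the file headers give only 12 positions for its 60 bases, and the dimmer at 49503875 to 49503934. The brighter probe had levels of 4.86, 5.16 and 5.16 in Het high-fat livers, 5.16, 4.78 and 5.32 in WT high-fat livers, 5.29, 5.28 and 5.38 in Het low-fat livers, and 5.39, 5.41 and 5.46 in WT low-fat livers. High-fat livers lay below low-fat livers within each genotype but overlapped when the genotypes were joined. The difference over both genotypes was -0.29 ± 0.11 and did not pass (adjusted p = 0.0572). It passed with quantile normalization (adjusted p = 0.0496), with the GC and brightness trend removed (adjusted p = 0.0461), with slide as a random block (adjusted p = 0.011) and without WT high-fat replicate 3 (-0.35, adjusted p = 0.0361). The correlation within slides in the random-block fit was -0.18, and since each slide holds 1 diet, a negative value narrows the error of diet differences. The dimmer probe, whose groups overlapped on each diet comparison, gave -0.24 ± 0.14.

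Of the transporters, Abcb11, the export pump of the bile canaliculus, had levels of 6.47, 6.85 and 6.28 in Het high-fat livers, 6.61, 6.45 and 6.99 in WT high-fat livers, 6.83, 6.65 and 6.94 in Het low-fat livers, and 6.68, 7.17 and 6.84 in WT low-fat livers. The groups overlapped, and the difference over both genotypes was -0.25 ± 0.14 (adjusted p = 0.201). Slc10a1, the sodium-dependent uptake carrier, had levels of 4.91, 4.96 and 4.62 in Het high-fat livers, 5.11, 4.80 and 5.24 in WT high-fat livers, 5.21, 5.04 and 5.40 in Het low-fat livers, and 5.15, 5.61 and 4.99 in WT low-fat livers. Its Het groups did not overlap, but the difference of -0.39 ± 0.19 did not pass (adjusted p = 0.182), nor did -0.29 ± 0.13 over both genotypes (adjusted p = 0.121). Over both genotypes Slc10a1 passed with the GC and brightness trend removed (adjusted p = 0.0282) and with slide as a random block (adjusted p = 0.0286), and Abcb11 with the trend removed (adjusted p = 0.0415).

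The probe of Nr1h4, which encodes the bile acid sensor FXR, lies at 89013326 to 89013385 of chromosome 10, minus strand, mm7. It had levels of 4.10, 4.33 and 4.02 in Het high-fat livers, 4.31, 4.21 and 4.20 in WT high-fat livers, 4.39, 4.30 and 4.67 in Het low-fat livers, and 4.71, 4.67 and 4.51 in WT low-fat livers. The WT groups were apart, and the Het groups overlapped. Over both genotypes Nr1h4 fell by 0.35 ± 0.09 (adjusted p = 0.0194, 95% interval -0.56 to -0.14). This call was lost when arrays were scaled to the median (adjusted p = 0.0618) and without the filter on dim probes (adjusted p = 0.0503). Within single genotypes the difference did not pass (-0.30 in Het, adjusted p = 0.144, and -0.40 in WT, adjusted p = 0.0999). With slide as a random block it passed in both (adjusted p = 0.0448 in Het and 0.029 in WT).

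Nr0b2, which encodes SHP, the repressor induced by FXR, had levels of 1.10, 1.58 and 0.99 in Het high-fat livers, 1.15, 1.05 and 0.98 in WT high-fat livers, 1.34, 1.17 and 0.68 in Het low-fat livers, and 0.71, 1.45 and 0.67 in WT low-fat livers. All groups overlapped. The difference over both genotypes was 0.14 ± 0.17, with a 95% interval from -0.24 to 0.52.

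**Figure D3:**
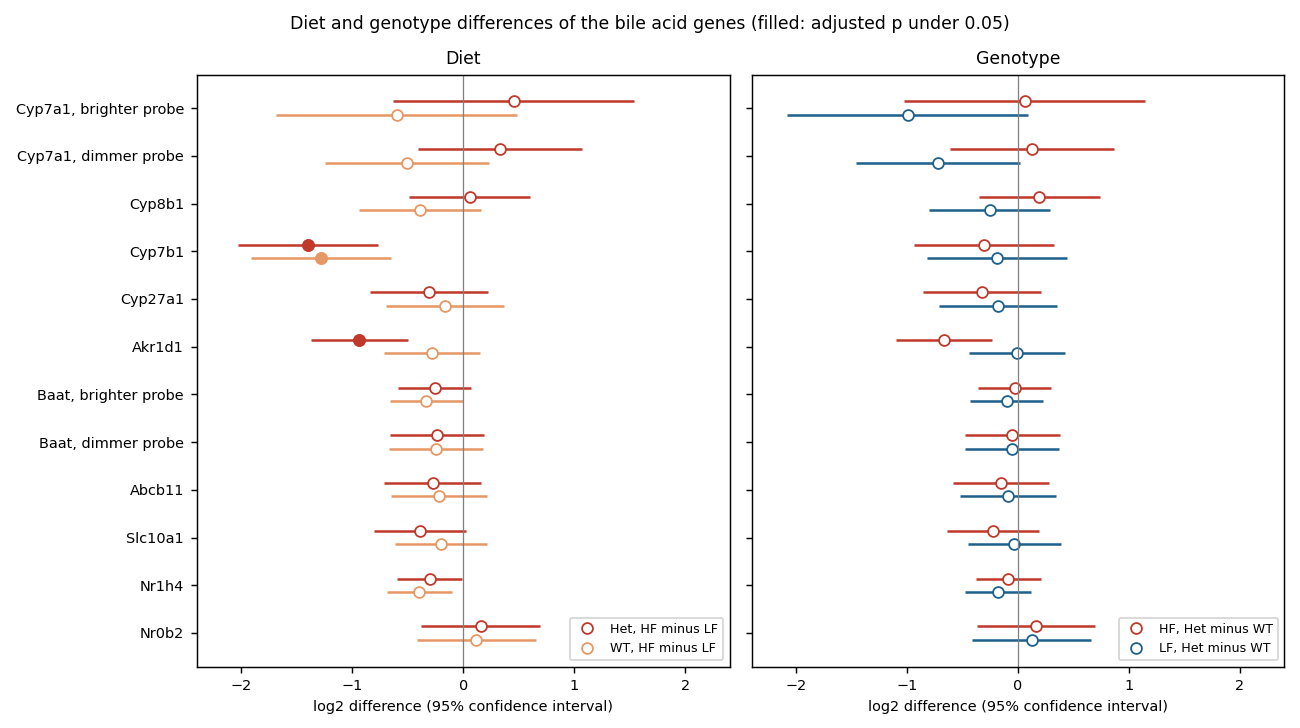
Log2 difference of each member probe, high-fat minus low-fat in the left panel and Het minus WT in the right panel, within each level of the other factor. Bars are 95% intervals and filled points have an adjusted p under 0.05, which are those of Cyp7b1 in both genotypes and Akr1d1 in Het, all in the left panel.

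Over the 12 member probes the median diet difference was -0.27 in Het, where 8 of 12 were below 0. It was -0.31 in WT and -0.24 over both genotypes, and 11 of 12 were below 0 in each. The medians of all probes tested were -0.01, -0.05 and -0.03 in the same order. Groups did not overlap for 4 of 12 members with diet in Het (35.7% of all probes), 3 of 12 with diet in WT (30.1%) and 1 of 12 over both genotypes. The 3 diet comparisons share their arrays. A lean below 0 was not confined to diet. For Het minus WT in low-fat livers the members' median was -0.14, with 11 of 12 below 0. Without WT low-fat replicate 2 it was -0.02, with 6 of 12 below 0, and without Het low-fat replicate 2 it was -0.04, with 7 of 12. Joining the diets gave -0.13, again with 11 of 12 below 0, and high-fat livers gave -0.07, with 8 of 12. In high-fat livers this count was 6 without WT high-fat replicate 3 and 11 without WT high-fat replicate 2. Cyp7a1 and Baat enter these counts with 2 probes each. The medians of all probes for these genotype differences were -0.0016, 0.0092 and 0.03, and no probe passed in them.

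Akr1d1 and Nr1h4 each passed as lower on the high-fat diet over both genotypes, and RefSeq's promoter table holds both. The 250 bases before their annotated starts are therefore shown, on build GRCm38.p6. Entries were found for 7 of the 10 members, and those of Cyp7a1, Cyp7b1 and Baat are named only. Capitals mark TGACCT, the reverse complement of AGGTCA, the core motif that many nuclear receptors bind.
Akr1d1, chr6:37529923-37530172, plus strand: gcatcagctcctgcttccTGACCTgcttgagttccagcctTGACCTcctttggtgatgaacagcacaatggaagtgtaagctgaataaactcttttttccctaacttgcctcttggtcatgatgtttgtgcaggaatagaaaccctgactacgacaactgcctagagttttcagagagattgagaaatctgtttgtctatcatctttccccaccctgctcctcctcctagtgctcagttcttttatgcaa
Nr1h4, chr10:89506659-89506908, minus strand: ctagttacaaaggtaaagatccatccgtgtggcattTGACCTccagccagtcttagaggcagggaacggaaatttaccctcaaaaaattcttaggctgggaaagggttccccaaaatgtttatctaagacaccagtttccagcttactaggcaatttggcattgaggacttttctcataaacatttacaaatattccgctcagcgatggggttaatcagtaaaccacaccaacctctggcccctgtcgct
The Akr1d1 window held AGGTCA on the opposite strand 232 and 210 bases before the start, and the Nr1h4 window held it 214 bases before. AGGTCA occurs on either strand in 14% of the 32851 mouse promoter windows searched, so such a match is common. It was found as well before Abcb11 and in 1 Slc10a1 window. Neither gene passed the diet test as reported, and both passed over both genotypes with the GC and brightness trend removed. Any link of the motif to diet was not tested. The motifs CAAGGTCA (1.33% of windows), which contains AGGTCA, and TGTTTAC (3.17%) were found in no member window. TTCNNNGAA (7.02%) occurred before Slc10a1 and Nr0b2, and TATAAA (12.4%) before Cyp8b1, Slc10a1 and Nr0b2. Both strands were searched, and a match in letters does not show that a factor binds there.

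No member passed in the genotype comparisons. Within the high-fat diet, within the low-fat diet, over both diets and for the interaction, limma called 0 of 12 member probes and 0% of all probes tested. At an unadjusted p under 0.05 there were 2288, 582, 1300 and 1343 probes over these comparisons, among them 1, 0, 1 and 1 member probes, each time that of Akr1d1. Het livers did not overlap WT livers for 2 of 12 members on the high-fat diet, Akr1d1 and Cyp27a1, where 15.5% of all probes showed this, for 1 of 12 on the low-fat diet, the brighter Baat probe, against 4.75% of all, and for 0 of 12 over both diets, against 0.0514% of all.

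On the high-fat diet Akr1d1 had a log2 difference between Het and WT of -0.67 ± 0.20 (adjusted p = 0.427, 95% interval -1.10 to -0.23, 3 of 3 Het livers below every WT liver). On the low-fat diet the difference was -0.0089 ± 0.20, with an interval from -0.44 to 0.43. The interaction, the diet difference in Het minus that in WT, was -0.66 ± 0.28 and did not pass (adjusted p = 0.917). With slide as a fixed block, which uses only WT high-fat replicate 3 as the WT liver scanned beside the 3 Het high-fat livers, the high-fat difference was -0.94 ± 0.28 (adjusted p = 0.718).

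Cyp27a1 differed by -0.33 ± 0.24 between Het and WT on the high-fat diet (adjusted p = 0.741), and by the same -0.33 with slide as a fixed block (SE 0.37). For Cyp7a1 the largest genotype values were on the low-fat diet, at -0.99 ± 0.49 on the brighter probe and -0.72 ± 0.34 on the dimmer, with intervals from -2.08 to 0.09 and from -1.45 to 0.02. The brighter probe gave -0.53 without WT low-fat replicate 1 and -1.50 without WT low-fat replicate 2, and the dimmer -0.40 without Het low-fat replicate 2 and -1.07 without Het low-fat replicate 3. On the high-fat diet they were 0.06 ± 0.49 and 0.13 ± 0.34. The interactions of the brighter and the dimmer probe, 1.05 ± 0.70 and 0.84 ± 0.47, did not pass (adjusted p = 0.982 and 0.959). Cyp7b1 had a genotype difference of -0.31 ± 0.29 with high-fat and -0.19 ± 0.29 with low-fat food, and its interaction was -0.12 ± 0.40, with a 95% interval from -1.01 to 0.77.

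The probes of other genes whose deviations from group means over the 12 arrays ran most like a member's were sought among 22266 probes, as a description. Those nearest to the brighter Cyp7a1 probe were Bora (r = 0.91), Dnajc2 (0.91) and Nolc1 (0.86). For Cyp7b1 they were Commd5 (0.98), Ccs (0.94) and Nrbp1 (0.94), and for Akr1d1 B4galnt1 (0.97), Naa60 (0.96) and Gstt3 (0.95). For Nr1h4 they were Gpr155, Tmem38a and Lncbate1, at 0.96 each. These values are the highest of a search over 22266 probes on 12 arrays, so they are high by selection, and they were not tested.

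Beyond the 10 members, 44 further genes of the pathway were listed by role, and 42 had a probe that was tested, taking for each the probe of highest mean signal (Slc51a and Gpbar1 had none). Over both genotypes 5 of the 42 rose and 11 fell on the high-fat diet, where 12.3% of all probes were called higher and 17.1% lower. With diet in WT 1 rose (Ch25h) and 2 fell (Cyp2c70 and Nr5a2), where 2.42% of all probes were called higher and 3.27% lower. With diet in Het 5 rose (Ephx1, Ch25h, Abcc3, Abcb4 and Slc51b) and 5 fell (Slco1a1, Cyp2c70, Hnf4a, Rxra and Klb), against 6.79% of all probes higher and 8.01% lower. Of these calls in Het those of Slco1a1 and Cyp2c70 held without each single array. In the genotype comparisons and the interaction 0 passed.

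Among 16 further enzyme genes 1 rose and 2 fell over both genotypes. Cyp2c70, the mouse enzyme that makes muricholic acids, had levels of 5.04, 5.49 and 5.07 in Het high-fat livers, 5.04, 5.59 and 5.56 in WT high-fat livers, 6.50, 5.88 and 6.42 in Het low-fat livers, and 6.31, 6.54 and 6.32 in WT low-fat livers. All high-fat livers lay below all low-fat livers, and the difference was -1.03 ± 0.15 (adjusted p = 0.00118). Ch25h, the cholesterol 25-hydroxylase, rose by 1.32 ± 0.22 (adjusted p = 0.00246), and by 0.82 with normexp background correction. It was well above background on only 2 of 3 WT low-fat arrays. Amacr, the racemase of the side-chain steps, fell by 0.36 ± 0.09 (adjusted p = 0.0114), a call lost when arrays were scaled to the median (adjusted p = 0.0542). In WT alone Cyp2c70 (-0.99 ± 0.21) and Ch25h (1.33 ± 0.32) passed, but the first call was lost without any 1 of the 6 WT arrays (adjusted p up to 0.0817). The Ch25h call in WT was lost without each WT array but low-fat replicate 2, and without Het low-fat replicate 1 (adjusted p up to 0.107).

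Among 12 tested genes of other transporters and bile secretion 4 rose and 2 fell over both genotypes. Slco1a1, a sodium-independent organic anion carrier of the sinusoidal membrane, fell by 2.61 ± 0.39 (adjusted p = 0.00133). Its levels were -1.78, -0.51 and 1.20 in Het high-fat livers, 1.51, 1.27 and 1.45 in WT high-fat livers, 3.23, 2.67 and 3.23 in Het low-fat livers, and 3.20, 3.44 and 3.08 in WT low-fat livers. Het high-fat livers were the lowest and varied most among themselves, and their difference of -1.77 ± 0.55 from WT high-fat livers did not pass (adjusted p = 0.427). Ephx1, an epoxide hydrolase with a reported role in bile acid uptake, rose by 0.69 ± 0.12 (adjusted p = 0.00245). The basolateral export genes Abcc3 (0.70 ± 0.14) and Slc51b (1.39 ± 0.34, named Ostb on the array) and the phospholipid export gene Abcb4 (0.37 ± 0.10) also rose, and the sterol export gene Abcg8 fell by 0.61 ± 0.15. Abcb4 no longer passed when Het high-fat replicate 1, Het low-fat replicate 1 or WT high-fat replicate 1 or 3 was left out (adjusted p up to 0.0528).

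Among 14 tested regulators 7 fell and 0 rose over both genotypes, where 17.1% of all probes were called lower and 12.3% higher. The regulators had a median of -0.34, against -0.03 over all probes. The lists were chosen with earlier results of these data known. Rxra, the dimer partner of FXR, fell by 0.61 ± 0.11 (adjusted p = 0.00382), and Klb, the co-receptor of the intestinal hormone FGF15, by 0.61 ± 0.12 (adjusted p = 0.00442). Hnf4a and Nr5a2, nuclear receptors that activate bile acid enzyme genes, fell by 0.62 ± 0.12 (adjusted p = 0.00471) and 0.51 ± 0.11 (adjusted p = 0.00909). Fgfr4, the receptor of FGF15, fell by 0.37 ± 0.11, Cebpa by 0.34 ± 0.11 and Prox1 by 0.33 ± 0.11. The calls of these last 3 were lost under median scaling, without the filter on dim probes, and without 5, 8 and 10 of the 12 arrays in turn, with adjusted p up to 0.118, 0.117 and 0.258. Prox1 passed in only 6 of 21 alternatives, being lost as well with normexp background correction, quantile normalization and the GC and brightness trend removed, and its difference was as small as -0.14. In WT alone Nr5a2 fell by 0.66 ± 0.16, a call lost without each of the 6 WT arrays and without Het low-fat replicate 2. Amacr, Abcc3, Slc51b, Abcb4, Abcg8, Fgfr4, Cebpa and Prox1 are named here after their values were seen.

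**Figure D4:**
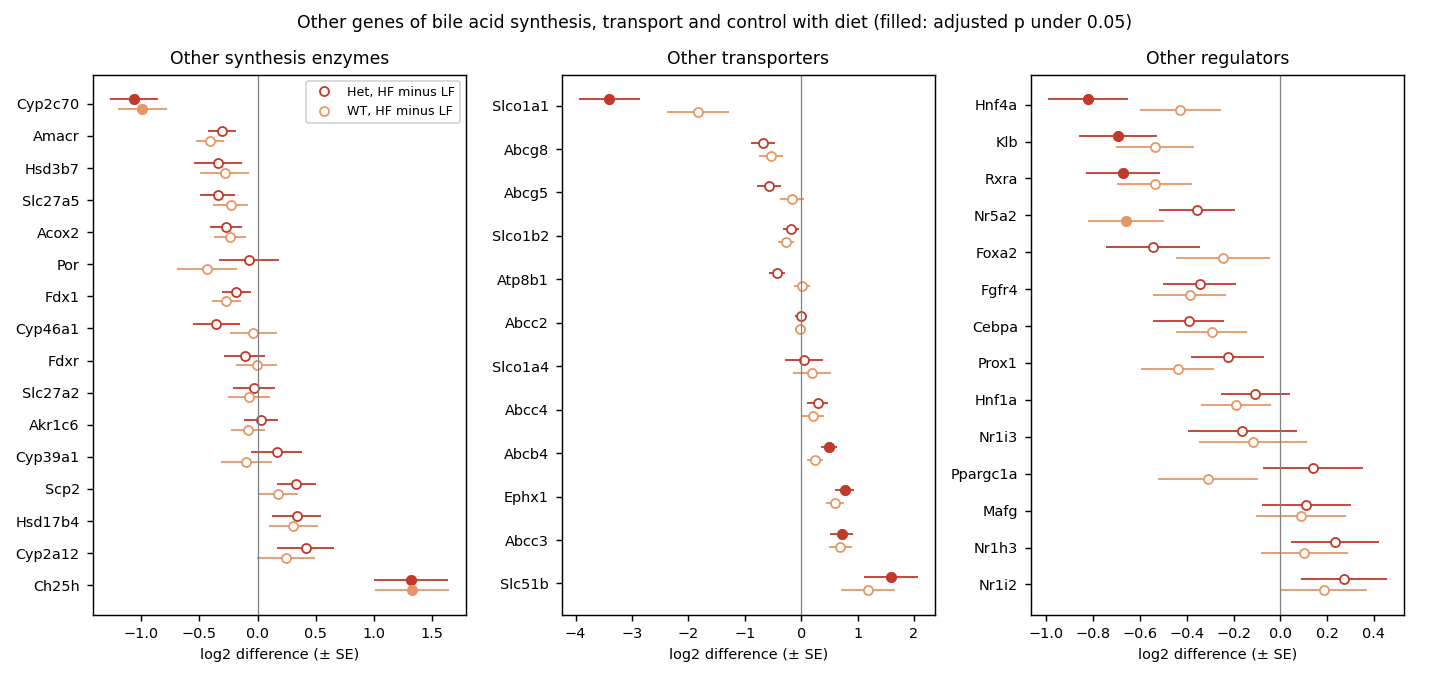
Log2 difference between high-fat and low-fat livers, ± SE, within Het and within WT, for the further enzyme, transporter and regulator genes. Filled points have an adjusted p under 0.05. In the regulator panel Hnf4a, Klb and Rxra are filled for Het and Nr5a2 for WT, all below 0, while Ch25h is filled above 0 for both genotypes in the enzyme panel.

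Markers of other liver cells moved with diet beside these results. The summed level of 6 cholangiocyte markers, in multiples of the 75th percentile, was 13.0 to 68.7 in Het high-fat and 19.8 to 24.1 in WT high-fat livers, against 7.11 to 9.56 in Het low-fat and 6.67 to 9.25 in WT low-fat livers. That of 6 stellate cell markers was 27.0 to 46.9 and 30.2 to 32.3 in the Het and WT high-fat livers, against 17.9 to 23.4 and 16.7 to 18.5 in the Het and WT low-fat livers. Over both genotypes 3 of the 6 cholangiocyte and 5 of the 6 stellate cell markers rose, where 12.3% of all probes were called higher. The cholangiocyte markers that rose were Spp1 (1.86 ± 0.33), Epcam (1.07 ± 0.31) and Krt19 (0.87 ± 0.23). Krt7 (0.66 ± 0.28), Cftr (0.45 ± 0.27) and Sox9 (0.16 ± 0.19) did not pass. A sum follows its brightest probes most. The sum of 5 endothelial markers was 8.77 to 10.4 in Het high-fat and 10.2 to 12.1 in WT high-fat livers. It was 12.5 to 12.9 in Het low-fat and 13.2 to 14.6 in WT low-fat livers. Over both genotypes 2 of the 5 fell (Kdr and Cdh5), where 17.1% of all probes were called lower. Stab2 and Tek lay lower (-0.19 ± 0.10 and -0.30 ± 0.11) and Pecam1 higher (0.28 ± 0.12), and none of these passed (adjusted p = 0.192, 0.0607 and 0.112). Of 6 macrophage and Kupffer cell markers 2 rose (Cd14 and Cd68), while the sums overlapped between the diets. Of 5 lymphocyte markers 1 fell (Cd3e), and of 3 red blood cell markers 0 passed. The sum of 6 hepatocyte markers overlapped between the groups, at 720.4 to 1100.0 and 723.8 to 943.2 in Het and WT high-fat livers, against 699.7 to 919.3 and 754.2 to 1053.8 in Het and WT low-fat livers, while 3 of its 6 genes fell, Hnf4a among them. The part of these shifts in the members' differences was not tested.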

How the data were processed

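Cy3-labelled liver RNA was measured on 12 1-colour Agilent arrays of 60-base probes. The deposited scanner tables hold intensity values. Feature Extraction 9.5 is named in the submitters' processing notes. Spot intensity was background-subtracted and detrended within the array by the authors, per the file headers, and the raw mean intensity, the local background and flags of 0 or 1 stand beside it. No normalization between arrays is recorded there. The authors' series table held the same processed intensity.

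Log2 processed intensity minus the array's 75th percentile was used, without control spots and 1344 outlier spots. Tested were the 25297 of 41174 probes that all arrays of some group showed well above background and that had values on 2 or more arrays per group. The model of group means used limma 3.58.1 (R 4.3.3) with 8 residual and 2.99 prior degrees of freedom, for 7 comparisons, with Benjamini-Hochberg adjustment. The fit was tested on simulated data.

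Named are every member and Sirt1 probe and, per comparison, the 6 other pathway genes of lowest p that passed. Of the nearest probes, the 3 of Cyp7a1, Cyp7b1, Akr1d1 and Nr1h4 are named, and those of the other members were computed as well. Members and lists were chosen with earlier results of these data known. The labels call the samples biological replicates. Alternatives were background correction, scaling, trend removal, filters, 1 probe per gene, blocks, samples fitted and leaving out each array. Probe coordinates are on mm7, per the file headers.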

Additional observations from a re-analysis of the deposited data

How the results depend on the processing

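The count of member probes passing was recomputed in 21 to 23 alternatives per comparison, which include leaving out each of the 12 arrays in turn. With diet in WT it was 1 as reported, 0 without the filter on dim probes, 0 with the replicate block and 2 with slide as a random block, and 0 to 1 with 1 array left out. With diet in Het it was 2, 1 with the trend on GC content and brightness removed and 3 with slide as a random block. Over both genotypes it was 3, 5 both with that trend removed and with slide as a random block, 4 with quantile normalization and without WT high-fat replicate 3, and 2 with median scaling and without the filter on dim probes. In the genotype comparisons and the interaction it was 0 throughout. The labels give no pairing of the mice by replicate number. Correlations of deviations between same-numbered arrays ran from -0.46 to 0.46 over 18 pairs, and 3 exceeded 0.1. With 3 mice per group these values cannot exclude a pairing. The replicate block changed the call of 1 member, Cyp7b1 in WT, and reduced the calls over all probes there to 701, against 1439 without it. Over all probes diet in WT gave 206 calls without the filter, 796 with only the groups compared, 5456 with slide as a random block and 261 to 1643 with 1 array left out. Of its calls 42.6% were higher as reported, 75.05% with median scaling (where the median of all probes was 0.06, against -0.05 as reported), 58.6% with quantile normalization and 56.9% with the trend removed. Over both genotypes 41.9% were higher, and 59.0% with median scaling. With genotype on the high-fat diet 0 probes of all passed as reported, 1 with quantile normalization, 61 without WT high-fat replicate 3, 2 without Het high-fat replicate 2 and 1 without Het low-fat replicate 2. Of 1846 values of member probes under these settings 88 turned sign, 0 of them where either value passed. All member probes were well above background on every array.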
